A study of Sus scrofa with 6 samples.

Results

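The nuclear-encoded subunits of the mitochondrial respiratory chain and ATP synthase were examined in pig subcutaneous fat, complex by complex. Genes were taken by symbol. Complex I held symbols that begin with NDUFA, NDUFB, NDUFC, NDUFS or NDUFV followed by a digit, and complex II held SDHA to SDHD. Complex III held symbols that begin with UQCR together with CYC1, complex IV those that begin with COX4 to COX8, and complex V those that begin with ATP5. This gave 64 genes of 22844 rows: 29 for complex I, 4 for complex II, 7 for complex III, 13 for complex IV and 11 for complex V. In the table that pairs identifiers with names, another 8 symbols that fit the rule had no matching row (NDUFA1, NDUFA7, NDUFA13, NDUFC1, UQCRB, COX6C, ATP5MC2 and ATP5MG) and were not analysed here. Further subunit symbols that were looked for matched no row either. Among them were NDUFV3, NDUFA12, NDUFS7, NDUFA3 and NDUFB3 of complex I and COX6B1 of complex IV. In complex V they were ATP5F1B, ATP5F1E, ATP5PD, ATP5MF and ATP5MJ. The values of complexes and subassemblies leave all of these out.

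The pigs were a cross of Duroc, Landrace and Yorkshire. Of 6 libraries of total RNA, 3 were from animals fed a control diet and 3 from animals whose diet held 400 mg/kg resveratrol, a polyphenol found in grapes. The labels give neither age nor time on the diet. Whether the 3 libraries of a diet stem from 3 different pigs is not stated, and p-values therefore describe only the spread among these libraries, which may be technical. Library totals ran from 16251536 to 37943877 reads, with control 2 the shallowest. The members took between 0.449% (control 1) and 0.820% (resveratrol 3) of the reads of a library. In bulk tissue, fewer cells of a type and less RNA per cell cannot be told apart.

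The respiratory chain passes electrons from NADH, through complex I, or from succinate, through complex II, to ubiquinone, then through complex III and cytochrome c to complex IV, which reduces oxygen. Complexes I, III and IV pump protons across the inner mitochondrial membrane, and complex V, the ATP synthase, uses that gradient to make ATP. Most subunits are encoded in the nucleus and imported, and the rest by the mitochondrial genome, with none of complex II. White adipocytes hold few mitochondria beside brown ones, but use them for fatty acid handling and lipogenesis.

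Of the 64 members, 63 had a mean of at least 0.5 TPM (a level scaled for transcript length and library size) and were tested. The exception was COX6B2, the testis form of a complex IV subunit. It had 4 reads in control 1, 1 read in resveratrol 2 and 0 reads in the other 4 libraries, where a count of 0 allows up to 3 reads. Mean levels of the tested members ran from 11.4 TPM for NDUFA4L2 to 4129.6 TPM for COX7C. By the median over genes, complex IV stood highest (611 TPM), then complex V (224 TPM), complex II (197 TPM), complex III (117 TPM) and complex I (89.4 TPM). Levels also differed inside a complex. In complex III, UQCRC2, a core protein, averaged 67.7 TPM, while UQCR10, a small single-helix subunit, averaged 1479 TPM. The highest levels were those of genes to which the tables assign few reads per TPM, with a Spearman coefficient of -0.63 between the 2 quantities across the 63 members. SDHA had 106 reads for each TPM and UQCR11 had 1.05, so TPM comparisons between long and very short transcripts rest on the length the authors assigned.

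**Figure D1:**
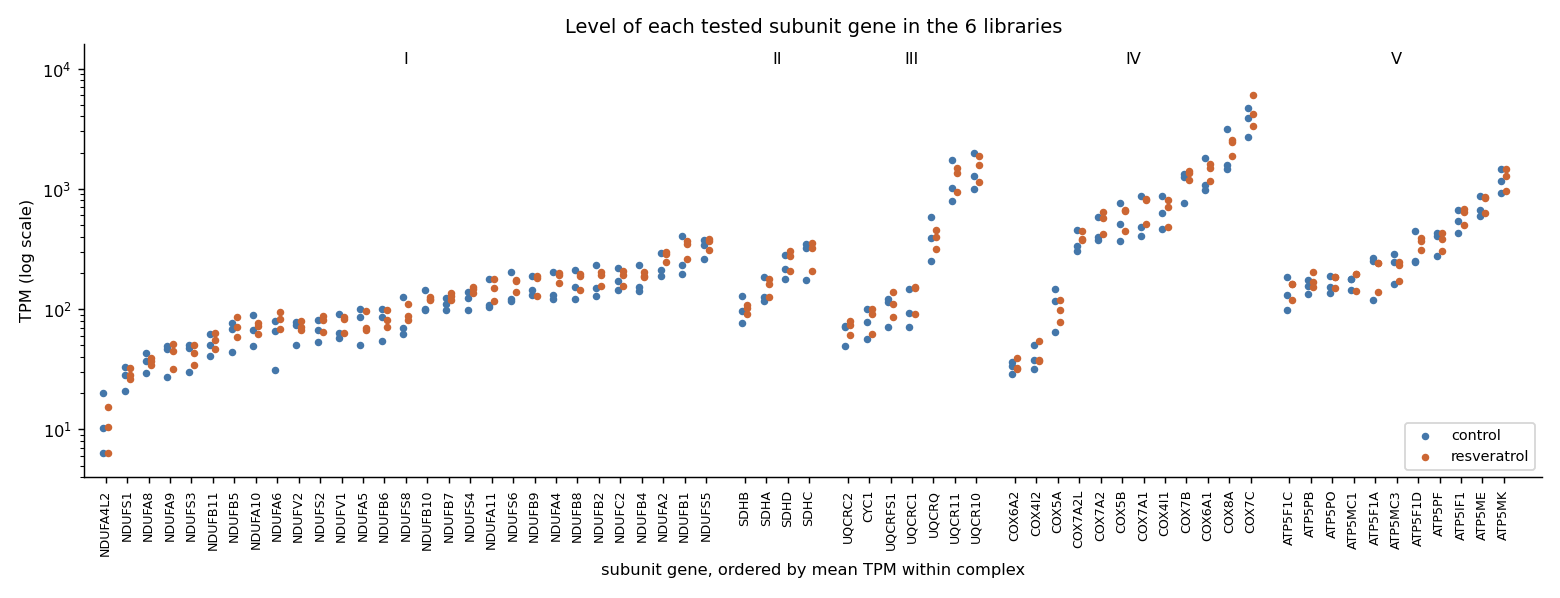
TPM of each tested subunit gene (log axis) in the 3 control and 3 resveratrol libraries, grouped by complex and ordered by mean level. The dots of both diets overlap for every gene, and levels span from 11.4 TPM (NDUFA4L2) to 4129.6 TPM (COX7C).

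The comparison of diets asked whether subunit genes differed with resveratrol, and whether the complexes differed from each other in this. No member was called. In edgeR 0 of 63 members had an adjusted p under 0.05 (over all rows 0.0%), the smallest adjusted p among them was 0.733, and DESeq2 called 0 of 63 as well (over all rows 0.268%). At an unadjusted p under 0.05 in edgeR, 1 of 63 was higher in resveratrol (2.21% of all 14908 rows) and 0 were lower (4.32%). These shares of all rows depend on the scaling. Of 973 rows at that threshold 329 were higher in resveratrol, while library totals alone gave 605 of 944 and quantile normalization 415 of 822. In TPM, 0 of 63 members had all resveratrol libraries above all control libraries (4.11% of all rows) and 0 had all of them below (8.15%). On counts scaled by TMM, a normalization that trims extreme genes, 2 of 63 members, NDUFA6 and NDUFS4, had all resveratrol libraries above all control libraries (5.67% of all rows).

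The fitted differences nevertheless lay mostly on the same side of 0. A log2 fold change above 0, meaning higher in resveratrol, was fitted for 61 of 63 members (48.8% of all rows). This number was 63 with library totals alone (57.4% of all rows). It was 60 in limma on log2(TPM + 0.5) (37.6%) and 57 after quantile normalization (53.6%). The median over the members was 0.19, beside -0.0075 over all rows. The differences were small against their errors. The median standard error (SE) of a member was 0.24, and 44 of 63 members had a log2 fold change smaller than its own SE. In TPM, the mean in resveratrol was a median of 1.08 times that in control, while the highest control library was a median of 1.70 times the lowest.

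The 5 complexes did not separate from each other in these differences. Median log2 fold changes were 0.18 in complex I (28 of 29 members above 0), 0.18 in complex II (4 of 4), 0.19 in complex III (7 of 7), 0.21 in complex IV (11 of 12 tested) and 0.18 in complex V (11 of 11). The range inside each complex was wider than the distance between these medians. It ran from -0.02 to 0.59 in complex I, from 0.08 to 0.30 in complex II, from 0.01 to 0.41 in complex III, from -0.06 to 0.39 in complex IV and from 0.05 to 0.26 in complex V. A difference between complexes was not tested, since the members share the same 6 libraries.

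**Figure D2:**
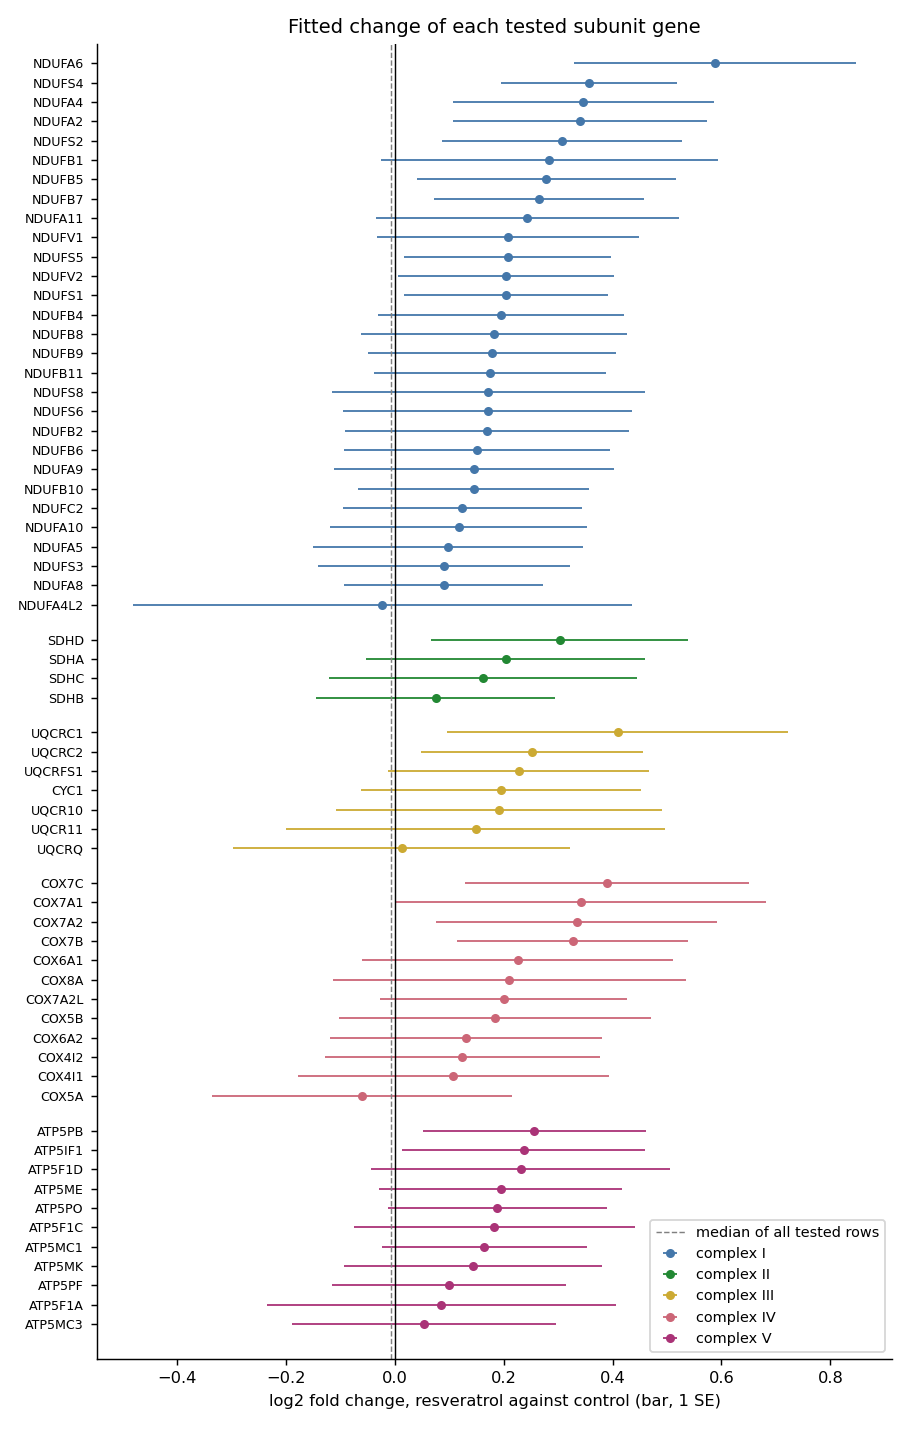
Fitted log2 fold change of each tested subunit gene, resveratrol against control, with bars of 1 SE to each side, coloured by complex. The dashed line is the median of all tested rows (-0.0075). All points but NDUFA4L2 and COX5A lie above 0, and no member had an adjusted p under 0.05 (smallest 0.733).

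The members divided the libraries in a way that cut across the diets. On TMM-scaled log2 CPM (read counts scaled to library totals adjusted by the TMM factors), the median member lay 0.35 below its 6-library mean in control 1, 0.34 below in control 2 and 0.17 below in resveratrol 1. It lay 0.15 above in resveratrol 2, 0.35 above in control 3 and 0.36 above in resveratrol 3. Thus control 3 stood with the highest resveratrol library and resveratrol 1 with the low libraries. Within each diet the library numbered 1 was lowest and that numbered 3 highest, although control 1 and control 2 differed little. The SD of these medians was 0.40 among control and 0.27 among resveratrol libraries, both larger than the median fold change. Every complex repeated the division. In complex I the medians were -0.35, -0.33 and 0.33 in control 1, 2 and 3 and -0.12, 0.14 and 0.34 in resveratrol 1, 2 and 3. In complex IV they were -0.41, -0.53 and 0.41 and -0.19, 0.14 and 0.37.

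Set library against library, the answer depended on the control. Against control 1, 57, 60 and 60 of 63 members were higher in resveratrol 1, 2 and 3 (median log2 differences 0.16, 0.49 and 0.73). Against control 2 they numbered 46, 61 and 62 of 63 (0.18, 0.51 and 0.69). Against control 3 they numbered 6, 5 and 35 of 63 (-0.55, -0.215 and 0.03). The result therefore moved with each of several libraries. Without control 3 the median over the members was 0.44, and 28 of 63 members had an unadjusted p under 0.05, all 28 higher in resveratrol (4.29% of all rows were higher at that threshold). The smallest adjusted p among them was 0.436, so 0 were called. Without resveratrol 1 the median was 0.33. It was 0.09 without control 1, 0.06 without control 2 and 0.08 without resveratrol 3, and the members above 0 then numbered 48, 49 and 46 of 63. Without resveratrol 2 it was 0.19.

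The 28 members were spread over all complexes, with 15 of 29 in complex I, 1 of 4 in complex II, 3 of 7 in complex III, 6 of 12 in complex IV and 3 of 11 in complex V. The complex medians without control 3 were 0.43, 0.46, 0.49, 0.52 and 0.39 in that order. Leaving out resveratrol 3 brought complex II to 0.02 and complex III to -0.01, and leaving out control 2 brought complex IV to 0.01 and complex V to 0.06. The lowest value for complex I was 0.08, without resveratrol 3. Each complex thus kept a median above 0 without any single library except complex III.

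**Figure D3:**
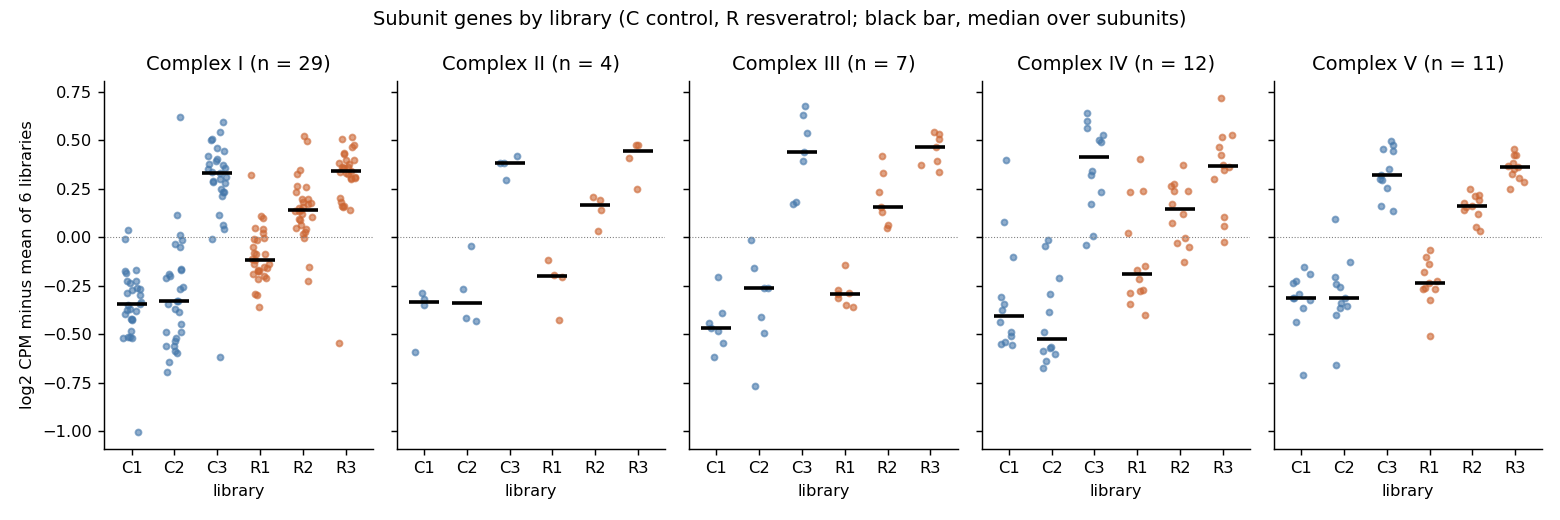
Distance of each subunit gene from its own 6-library mean in log2 CPM, by library (C, control; R, resveratrol), with the median over the genes of each complex as a black bar. In all 5 complexes control 1, control 2 and resveratrol 1 lie below 0 at the median and resveratrol 2, control 3 and resveratrol 3 lie above it.

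Across the 6 libraries the members varied together. The median Pearson coefficient over all pairs of members was 0.86, with 0.86 for pairs from different complexes and from 0.71 (complex IV) to 0.91 (complex V) for pairs of the same complex. Against the median of the other members, 42 of 63 had a coefficient above 0.9 and 58 of 63 above 0.7. These coefficients describe 6 points that share library, depth and scaling. The 5 members below 0.7 were NDUFA5 (0.699), NDUFA6 (0.515), COX6A2 (0.391), COX4I2 (-0.082) and NDUFA4L2 (-0.654), and the last 3 are tissue or hypoxia forms of common subunits.

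Complex I takes electrons from NADH in a peripheral arm and pumps protons in a membrane arm. Its most abundant measured members were NDUFS5, NDUFB1 and NDUFA2. NDUFS5, an accessory subunit on the side of the intermembrane space, measured 263, 339 and 373 TPM in control 1, 2 and 3 against 309.6, 371 and 379.9 TPM in resveratrol 1, 2 and 3. Control 3 lay inside the resveratrol range, and the log2 fold change was 0.21 (SE 0.19). NDUFB1, a small subunit of the membrane arm, measured 196, 231 and 409 TPM in control against 258, 367 and 350.0 TPM in resveratrol, so that control 3 was the highest of all 6. NDUFA2, an accessory subunit of the NADH-oxidizing module, measured 209, 188 and 292 TPM against 247, 301 and 289 TPM (log2 fold change 0.34, SE 0.23).

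The largest fitted differences in complex I were those of NDUFA6 and NDUFS4. NDUFA6 binds the mitochondrial acyl carrier protein at the peripheral arm. It measured 30.9, 79.3 and 65.4 TPM in control against 82.4, 94.5 and 68.1 TPM in resveratrol. Control 1 stood far below the other 5 libraries and control 2 lay inside the resveratrol range. The log2 fold change was 0.59 (SE 0.26, adjusted p = 0.733), and NDUFA6 was the member with an unadjusted p under 0.05. Without control 1 the log2 fold change was 0.32. NDUFS4, which is needed for a stable NADH module, measured 97.9, 138 and 125 TPM against 135, 147 and 152 TPM (log2 fold change 0.36, SE 0.16, adjusted p = 0.733). Control 2 lay just above resveratrol 1, the lowest of the treated libraries.

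At the other end, NDUFA8, an accessory subunit that faces the intermembrane space, measured 29.4, 37.1 and 42.8 TPM in control against 34.3, 39.0 and 37.3 TPM in resveratrol, with a log2 fold change of 0.09 (SE 0.18). By subassembly, the median log2 fold change was 0.21 over 6 measured genes of the NADH-oxidizing module and 0.16 over 6 of the ubiquinone-reducing module. In the membrane arm it was 0.12 over 5 proximal genes and 0.18 over 10 distal genes. All of these 27 genes had a value above 0. The rule also places NDUFA4 in complex I by its name, although its product is now regarded as a subunit of complex IV. NDUFA4 measured 122, 131 and 202 TPM against 164, 191 and 201 TPM (log2 fold change 0.35, SE 0.24), with control 3 again at the top.

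Complex II, succinate dehydrogenase, belongs to both the citric acid cycle and the respiratory chain. SDHA, its flavoprotein, measured 116, 127 and 185 TPM in control against 126, 163 and 176 TPM in resveratrol (log2 fold change 0.20, SE 0.26). SDHB, the iron-sulfur subunit, measured 76.2, 97.3 and 128 TPM against 91.6, 102 and 108 TPM. Its group means coincided at 100.5 TPM, and its log2 fold change on counts was 0.08 (SE 0.22). The membrane anchors were more abundant. SDHC measured 175, 323 and 349.6 TPM against 207, 325 and 356 TPM (log2 fold change 0.16, SE 0.28). SDHD measured 177, 215 and 282 TPM against 209, 276 and 307 TPM (log2 fold change 0.30, SE 0.24). In all 4 genes the lowest library was control 1, and control 3 lay above the mean of the treated libraries.

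Complex III passes electrons from ubiquinol to cytochrome c. Its catalytic nuclear subunits, CYC1 (cytochrome c1) and UQCRFS1 (the Rieske iron-sulfur protein), averaged 78.1 ± 22.2 against 84.5 ± 19.97 TPM and 102 ± 27.1 against 112 ± 26.0 TPM (SD, n = 3 each). The core proteins had the largest fitted differences. UQCRC1 measured 70.8, 93.3 and 148 TPM in control against 91.4, 151 and 149 TPM in resveratrol (log2 fold change 0.41, SE 0.31). Resveratrol 1 was as low as control 2, and control 3 as high as resveratrol 2 and 3. UQCRC2 measured 49.2, 70.3 and 72.9 TPM against 60.4, 73.7 and 79.9 TPM (log2 fold change 0.25, SE 0.20). Both values moved with single libraries: UQCRC1 had 0.82 without control 3 and 0.22 without control 1, and UQCRC2 had 0.42 without control 3 and 0.12 without resveratrol 3.

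The small subunits were the most abundant of complex III. UQCR10 measured 987, 1274 and 1999.6 TPM in control against 1149, 1592 and 1869.5 TPM in resveratrol (log2 fold change 0.19, SE 0.30). UQCR11 measured 1007, 786 and 1733 TPM against 934, 1348 and 1478 TPM (log2 fold change 0.15, SE 0.35). UQCRQ, which binds ubiquinone, measured 251, 387 and 583 TPM against 314, 399 and 454 TPM, with a log2 fold change of 0.01 (SE 0.31). In these 3 genes control 3 was higher than every resveratrol library. The summed level of complex III ran from 2492 to 4751 TPM among controls, a 1.91-fold range and the widest of the 5 complexes, and from 2698 to 4259.9 TPM among treated libraries.

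Complex IV, cytochrome c oxidase, holds catalytic subunits made in the mitochondrion and a shell of nuclear subunits. The smallest of that shell were the most abundant members of all. COX7C measured 2699, 4695 and 3849 TPM in control against 3305, 4207 and 6022 TPM in resveratrol (log2 fold change 0.39, SE 0.26, adjusted p = 0.748). Its highest library was resveratrol 3, but control 2 exceeded the other treated libraries. COX8A measured 1467, 1569 and 3145 TPM against 1886, 2534 and 2453 TPM (log2 fold change 0.21, SE 0.32). Control 3 was its highest library. COX7B measured 768, 1245 and 1335 TPM against 1398, 1187 and 1342 TPM, and here resveratrol 1 was the highest library (log2 fold change 0.33, SE 0.21).

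COX5A and COX5B are shell subunits that differed from each other in fitted direction. COX5A measured 64.5, 116 and 146 TPM in control against 78.5, 119 and 99.2 TPM in resveratrol. It had a log2 fold change of -0.06 (SE 0.28), which was 0.01 with library totals alone, 0.30 without control 3 and 0.10 without resveratrol 1. COX5B, which binds zinc, averaged 547 ± 198 against 593 ± 124 TPM (SD, n = 3 each). COX7A2L, which links complexes III and IV into supercomplexes, measured 332, 305 and 453 TPM against 384, 377 and 446 TPM (log2 fold change 0.20, SE 0.23).

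Several complex IV subunits exist as paired forms, a common form and a form restricted to certain tissues. COX7A1, the form of heart, skeletal muscle and brown fat, measured 408, 485 and 878 TPM in control against 513, 807 and 823 TPM in resveratrol (log2 fold change 0.34, SE 0.34). Its common partner COX7A2 measured 375, 396 and 586 TPM against 419, 577 and 637 TPM (log2 fold change 0.33, SE 0.26). COX7A1 made up 52.1% to 59.96% of the pair's TPM in control against 55.0% to 58.3% in resveratrol, and so was the larger part in all 6 libraries. The share ranges of the diets overlapped.

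COX6A2, the muscle form, measured 33.5, 28.9 and 36.1 TPM in control against 39.3, 32.5 and 31.8 TPM in resveratrol. COX6A1, the common form, measured 979, 1067 and 1790.1 TPM against 1169, 1499 and 1618 TPM. The COX6A2 share of the pair was 2.64 ± 0.668% against 2.44 ± 0.716% (SD, n = 3 each). Of 15 skeletal muscle markers 8 matched a row and 2, TNNC2 and TNNI2, passed the filter on low values. These summed to at least 0.856 TPM (resveratrol 3) and at most 1.88 TPM (resveratrol 1) in a library. Among those under the filter, ACTA1 was at most 0.695 TPM and CKM at most 0.658 TPM. The muscle forms of complex IV were thus measured where the matched muscle markers were near 0.

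COX4I2, a form linked to low oxygen, lung and pericytes, measured 50.7, 31.99 and 38.03 TPM in control against 53.9, 37.7 and 36.8 TPM in resveratrol. COX4I1, the common form, measured 465, 625 and 863 TPM against 484, 701 and 812 TPM. COX4I2 was therefore highest in control 1 and resveratrol 1, where COX4I1 was lowest, and its share of the pair was 9.84%, 4.87% and 4.22% in control and 10.03%, 5.11% and 4.33% in resveratrol. NDUFA4L2, a hypoxia-induced paralog of NDUFA4, measured 10.2, 19.96 and 6.31 TPM against 10.4, 15.3 and 6.39 TPM. It was lowest in control 3 and resveratrol 3, and its log2 fold change was -0.02 (SE 0.46). Its counts were low, from 23 to 65 reads per library. The log2 fold change was 0.33 without control 2 and 0.01 with library totals alone.

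**Figure D4:**
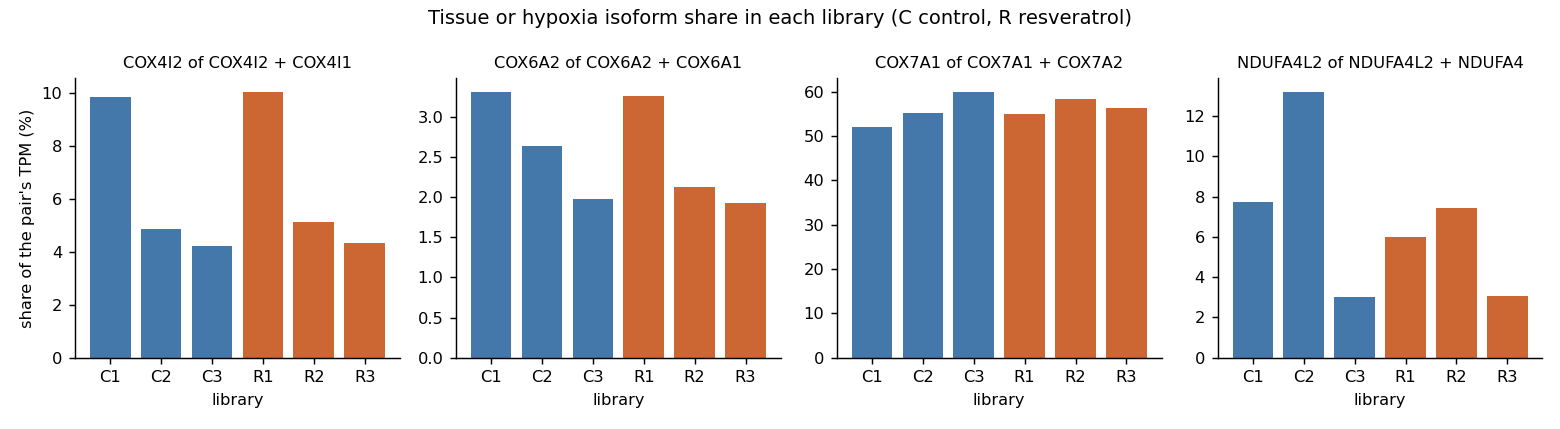
Share of the TPM of a pair of paralogs taken by the tissue-restricted or hypoxia-linked form, in each of the 6 libraries, with a separate axis from 0 for each pair. COX4I2 took 9.84% and 10.03% of its pair in control 1 and resveratrol 1, and 4.22% to 5.11% elsewhere, while COX7A1 took from 52.1% to 59.96% of its pair.

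Complex V couples a catalytic head to a membrane ring of c subunits. ATP5F1A, the alpha subunit of the head, measured 119, 249.9 and 266 TPM in control against 139.9, 239.6 and 244 TPM in resveratrol (log2 fold change 0.09, SE 0.32). Control 1 and resveratrol 1 stood apart from the other 4 libraries, which differed little. The c subunit is encoded by several genes for the same mature protein. ATP5MC1 measured 144, 178 and 179 TPM against 141, 197 and 194 TPM (log2 fold change 0.16, SE 0.19). ATP5MC3 measured 163, 287 and 244 TPM against 170.4, 246 and 233 TPM. Its log2 fold change was 0.05 (SE 0.24) on counts and -0.08 in limma on log2 TPM.

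In the peripheral stalk, ATP5PB measured 134, 155 and 176 TPM in control against 152, 168 and 205 TPM in resveratrol (log2 fold change 0.26, SE 0.21). The small membrane subunits ATP5ME and ATP5MK averaged 712 ± 149.9 against 775 ± 128 TPM and 1177 ± 266 against 1226 ± 254 TPM (SD, n = 3 each). ATP5IF1, which blocks the reverse, ATP-consuming action of the enzyme, is an inhibitor and not a subunit. It measured 429, 542 and 672 TPM against 502, 648 and 679.6 TPM (log2 fold change 0.24, SE 0.22), and its Pearson coefficient with the median of the other members was 0.996. The medians of the subassemblies were 0.18 for 3 head genes, 0.11 for 2 c-ring genes, 0.19 for 3 stalk genes and 0.17 for 2 membrane genes.

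In the summed TPM of each complex control 1 was the lowest and control 3 the highest of the controls, and resveratrol 1 the lowest and resveratrol 3 the highest of the treated libraries. For all members together it was 16913, 21948 and 28866 TPM in control 1, 2 and 3 against 20301, 25945 and 29164 TPM in resveratrol 1, 2 and 3. The group means were 22576 ± 6001 and 25137 ± 4487 TPM (SD, n = 3 each). Control 2 lay above resveratrol 1 in this sum but was as low as control 1 in TMM-scaled CPM. Before TMM scaling the members took 0.559% of reads in control 2 and 0.449% in control 1. The TMM factor, which divides the CPM, was 1.0989 in control 2, the highest of the 6, and 0.9411 in control 1. The tables gave members a median of 0.361 CPM per TPM in control 2, the lowest of the 6, and up to 0.429 in resveratrol 1. Over all rows the same ratio ran from 1.68 in control 2 to 1.98 in resveratrol 3.

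Genes that work with the subunits were read from lists of assembly factors, electron carriers, regulators and mitochondrial mass. No gene of these lists passed the adjusted threshold. Of 14 assembly factors of complex I, 13 had a log2 fold change above 0 (median 0.12). TMEM126B, which builds the membrane arm, measured 9.78, 16.6 and 16.1 TPM in control against 20.9, 22.7 and 21.3 TPM in resveratrol, with all resveratrol libraries above all control libraries (4.11% of all rows; log2 fold change 0.70, SE 0.20, adjusted p = 0.733). TMEM186 followed with 0.43, and NDUFAF4 (-0.53) and TIMMDC1 (0.04) were lowest. In TPM, NDUFAF4 had all resveratrol libraries below all control libraries (8.15% of all rows), as had TTC19 among the factors of complexes II and III and COX18 among those of complex IV. The fitted log2 fold change of COX18 on counts was only -0.03 (SE 0.19). For complexes II and III, 5 of 7 factors were above 0 (median 0.19), with BCS1L (0.44) and UQCC2 (0.41) highest and TTC19 (-0.42) and SDHAF2 (-0.11) lowest.

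Complex IV factors had a median of 0.14, with 12 of 16 above 0. COA4 (0.38) and COX15 (0.23) were highest, and SCO1 (-0.09) and COX10 (-0.08) lowest. Of 3 factors for complex V, 2 were above 0. Among 8 carriers and other electron entry genes, 6 were above 0 (median 0.16), with DHODH (0.43) and ETFB (0.33) highest. CYCS, cytochrome c itself, had a log2 fold change of -0.03 and measured 117, 184 and 184 TPM against 140.0, 137 and 168 TPM. The acyl carrier NDUFAB1, also a complex I subunit but outside the symbol rule, had -0.10. Of 11 genes of mitochondrial mass 10 were above 0 (median 0.12), with SLC25A4 (0.46) and PHB2 (0.22) highest and VDAC1 (-0.31) and VDAC3 (0.02) lowest.

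Transcription factors and coactivators of mitochondrial genes did not share the members' one-sided distribution. Of 16 tested, 8 were above 0 and 8 below, with a median of -0.0079. ESRRA, an orphan nuclear receptor of oxidative genes, had the highest log2 fold change (0.44, SE 0.21), followed by SIRT3 (0.31), a mitochondrial deacetylase. PPRC1, a coactivator of the PGC1 family, had the lowest (-0.67, SE 0.20, adjusted p = 0.733), followed by TFB2M (-0.26), a mitochondrial transcription factor. PPRC1 had all resveratrol libraries below all control libraries in TPM (8.15% of all rows). NRF1, which binds promoters of many subunit genes, measured 10.2, 13.1 and 8.93 TPM in control against 9.16, 9.71 and 7.02 TPM in resveratrol. PPARGC1A was at most 0.164 TPM and was not tested.

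The 13 mitochondrially encoded subunits belong to the same complexes and had the opposite balance, with 12 of 13 below 0, a median of -0.59 and 6 of 13 lower at an unadjusted p under 0.05 (4.32% of all rows). Without control 1, 2 and 3 the medians were -0.72, -0.25 and -0.74, and 9, 4 and 9 of 13 were lower at that threshold. Without resveratrol 1, 2 and 3 they were 5, 3 and 5 of 13. Over all 14908 rows, 1060, 1230 and 1681 were under it in either direction without control 1, 2 and 3 (433, 381 and 640 higher). Without resveratrol 1, 2 and 3 they were 556, 911 and 403 (224, 277 and 181 higher). For the mitochondrially encoded list these fits were added after the data were seen. ATP8 (-1.14) and ND2 (-1.06) were lowest and COX1 (0.12) and COX2 (-0.33) highest. Their sum was 8743, 19209 and 11201 TPM in control 1, 2 and 3 against 10284, 9615 and 10399 TPM in resveratrol. The ratio of mitochondrially to nuclear-encoded subunits was 0.517, 0.875 and 0.388 in control and 0.507, 0.371 and 0.357 in resveratrol. Control 2 was the highest library in both. The ratio of control 3 lay inside the treated range, while its sum lay above it.

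Ribosomal proteins had similar median log2 fold changes to the subunits and a narrower spread among controls. Their median levels differed, with 1123 TPM for the cytosolic and 32.6 TPM for the mitochondrial ones, beside 165 TPM for the subunits. Cytosolic ribosomal proteins had a median log2 fold change of 0.25 (47 of 49 above 0) and mitochondrial ribosomal proteins one of 0.23 (59 of 64). All resveratrol libraries lay above all control libraries in TPM in 21 of 49 and 11 of 64 of them, beside 0 of 63 subunits and 4.11% of all rows. The summed TPM of cytosolic ribosomal proteins varied 1.12-fold among controls, that of mitochondrial ribosomal proteins 1.30-fold and that of the subunits 1.71-fold. These differences between gene groups were not tested.

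**Figure D5:**
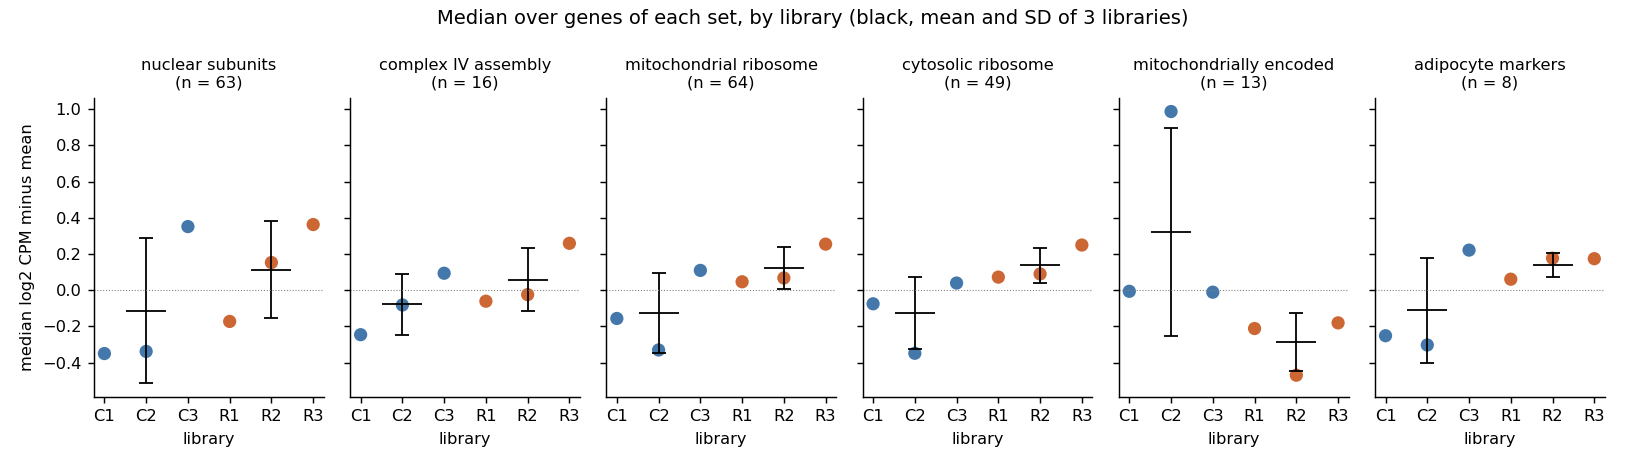
Median over genes of the distance from the 6-library mean in log2 CPM, for the nuclear subunits and for complex IV assembly factors, both kinds of ribosomal protein, mitochondrially encoded genes and adipocyte markers, by library, with the mean and SD of 3 libraries in black. Control 3 stands at 0.35 for the nuclear subunits and at 0.04 for the cytosolic ribosome, and control 2 stands at 0.99 for the mitochondrially encoded genes.

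Markers of cell types moved with the members in part. Of 8 adipocyte markers 7 had a log2 fold change above 0 (median 0.23). Their median distance from the mean was -0.25, -0.30 and 0.22 in control 1, 2 and 3 and 0.06, 0.18 and 0.17 in resveratrol 1, 2 and 3, so that control 1 and 2 were low and control 3 high, as for the subunits, while resveratrol 1 was not low. Their sum, most of it FABP4, ran from 17509 to 24434 TPM in control against from 21427 to 27119 TPM in resveratrol, and none was at 0. Tendon and cartilage markers summed to 293 TPM in control 1, where 52 of 63 members were lowest in TPM but 29 of 63 in TMM-scaled log2 CPM (control 2, 30 of 63), 21.96 TPM in control 2 and 55.8 TPM in control 3, and to between 12.7 and 19.7 TPM in resveratrol. All 6 of them were below 0. Macrophage markers were all above 0 (10 of 10, median 0.50), with sums from 588 to 692 TPM in control against from 735 to 1105 TPM in resveratrol, highest in resveratrol 1. The part of these cell types in the subunit values was not tested.

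Of the remaining marker lists, endothelial genes had 2 of 5 above 0, with sums from 213 to 298 TPM in control against from 205 to 230 TPM in resveratrol. Fibroblast and progenitor genes had 5 of 7 above 0, with COL1A1 lowest at -1.40. Their sums ran from 4378 to 7603 TPM in control against from 4009 to 5613 TPM in resveratrol. Erythroid genes had 3 of 4 above 0 and lymphocyte genes 4 of 4 tested. The median distance of the lymphocyte genes from the mean was 0.90 in resveratrol 1 and from -0.30 to -0.09 in the other libraries. Pericyte genes, added because COX4I2 and NDUFA4L2 are known from those cells and after their values were seen, had 1 of 7 above 0. RGS5 measured 59.0, 139 and 81.1 TPM in control against 76.0, 84.8 and 75.3 TPM in resveratrol. It was highest in control 2, as NDUFA4L2 was, and lowest in control 1, where COX4I2 was high. ABCC9 (15.8 TPM), KCNJ8 (13.4 TPM) and NOTCH3 (15.5 TPM) were also highest in control 2, and KCNJ8 was likewise lowest in control 1. PDGFRB (54.8 TPM) and CSPG4 (11.4 TPM) were highest in control 1, and HIGD1B (44.7 TPM) in resveratrol 3.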

How the data were processed

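Total RNA of pig subcutaneous fat was extracted with Trizol and made into libraries with kits for long non-coding and small RNA, per the labels' protocols. Small RNA was not analysed here. The authors deposited, per the file headers, a read count and a TPM value for each of 22844 rows in 6 libraries, and a series table with the same TPM values for 14777 rows, all 64 members among them. The submitters' processing notes name Bowtie 0.12.2 and 2 mouse assemblies (mm8, mm9). The rows carry pig Ensembl identifiers. A pig build, the counting program and its use of strand were not found in the labels or headers, so no coordinates are printed. Symbols matched 14750 rows. Reads of overlapping genes, or of the processed pseudogenes that many subunit genes have, cannot be assigned with certainty. No sequences are printed.

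The 14908 rows that averaged 0.5 TPM or more were tested on counts with edgeR 4.0.16 in R 4.3.3 (TMM scaling, robust quasi-likelihood test, Benjamini-Hochberg adjustment over all rows, threshold 0.05). The SE is the size of the log2 fold change divided by the square root of F. Alternatives were DESeq2 1.42.0, limma 3.58.1 on log2(TPM + 0.5), with pseudocounts of 1 and 0.1 and after quantile normalization, other scalings and filters, a fit blocked on replicate number, and fits without each library in turn. Members and lists were chosen with earlier results of these data known. Named within each complex are the 3 most abundant members, the 2 highest and 2 lowest by fold change, any at an unadjusted p under 0.05 or below the filter, complex II whole, and paired forms. Of other lists, the 2 highest and 2 lowest are named. Other genes were named after their values were seen.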

Additional observations from a re-analysis of the deposited data

How the results depend on the processing

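No member was called under any of the 18 alternatives. The median log2 fold change of each complex moved by less than the pooled SD of its library medians within a diet (0.32 to 0.43), although it reached 0.39 to 0.52 without control 3. All rows called numbered 40 in DESeq2, 1 after quantile normalization and 0 to 5 without 1 library each. Members at an unadjusted p under 0.05 numbered 2 of 63 with library totals alone, beside 944 of all 14908 rows. They numbered 0 in limma on log2 TPM with each pseudocount and after quantile normalization, and 0 with a mean of at least 1 TPM. Without 1 library each they numbered 0 to 28, the 28 without control 3, beside 1681 of 14908 rows in that fit. The replicate number as a block gave 3 such members of 63, beside 1259 of 14908 rows in the same fit, a median of 0.22 over all members and 0 calls. Same-numbered libraries correlated at 0.157, 0.0741 and 0.200 in their distances from the group means, and other pairs at -0.154 to 0.0121. Every library thus correlated best with its own number. Whether the numbers pair the samples is not known, and the main fit did not pair them.

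Among the named members, 40 values over all alternatives had the opposite sign to the reported one. Those on all 6 libraries were NDUFA4L2 (0.0091) and COX5A (0.0085) with library totals alone, ATP5MC3 in limma on log2 TPM (-0.0757, -0.0756 and -0.0758 with pseudocounts of 0.5, 1 and 0.1), and, after quantile normalization, NDUFA4L2 (0.0055), UQCRQ (-0.0027), ATP5MK (-0.0455), ATP5MC3 (-0.1132) and ATP5F1A (-0.0056). Leaving out 1 library each gave ranges of -0.35 to 0.33 for NDUFA4L2, -0.0044 to 0.28 for NDUFA8, -0.0531 to 0.43 for SDHC, -0.0562 to 0.35 for SDHB, -0.0174 to 0.60 for UQCR10, -0.12 to 0.61 for UQCR11, -0.22 to 0.47 for UQCRQ, -0.0274 to 0.73 for COX8A, -0.30 to 0.30 for COX5A, -0.11 to 0.44 for COX4I1, -0.0394 to 0.39 for ATP5MK, -0.10 to 0.36 for ATP5MC3, -0.18 to 0.36 for ATP5F1A, -0.0897 to 0.39 for COX4I2 and -0.0395 to 0.25 for COX6A2. Of 35 named members, 30 had a log2 fold change over 1.5 times larger without control 3 and 24 without resveratrol 1, while 24, 27 and 26 had one over 1.5 times smaller or opposite without control 1, control 2 and resveratrol 3. The cause was not tested. With 3 libraries a group and a median SE of 0.24, differences of the size fitted here were not detectable gene by gene.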
